A study of Mus musculus with 4 samples.

Results

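Parathyroid cells, which make parathyroid hormone, were described in 1 single-cell RNA library, that of thymic lobes from Tbx1+/+ embryos whose mothers had received carrier. A cell counted as a member when its raw counts of unique molecular identifiers (UMIs, each 1 captured transcript) reached 1 for Gcm2, 10 for Pth and 5 for Chga and were 0 for Ptprc, the pan-leukocyte gene that encodes CD45. Cells were considered when they had 200 or more genes and no more than 10% of their UMIs from mitochondrial genes. Of 11474 such cells, 129 met the 4 conditions, a share of 1.12% (exact binomial 95% interval 0.939 to 1.33%). Over the 4 libraries of the study, 29510 cells passed the same limits on genes and mitochondrial UMIs.

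The study asked whether minoxidil or prostaglandin E2 (PGE2), given to the pregnant mouse, changes the hypoplastic thymus of Tbx1neo2/neo2 embryos. The neo2 allele carries a neomycin resistance cassette in an intron of Tbx1 and is a hypomorph, and all embryos came from Tbx1+/neo2 intercrosses. Mothers received their injections on embryonic days 8, 9 and 10, either carrier (5% ethanol), minoxidil (200 µl, 0.55 mg/ml) or PGE2 (90 µl, 3.6 ng/µl), and lobes were taken at embryonic day 13 to 13.5. There was 1 library each for Tbx1+/+ carrier, Tbx1neo2/neo2 carrier, Tbx1neo2/neo2 minoxidil and Tbx1neo2/neo2 PGE2. In that order the libraries held 11908, 11364, 3362 and 4471 barcodes called as cells, with 292687940, 194023208, 151740600 and 156363845 UMIs. The lobes of hypoplastic embryos were pooled and the number of embryos behind each library is not known. With 1 library per group, genotype, treatment, dissection and library cannot be told apart, no test across embryos was possible, and all intervals cover counting error only.

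The parathyroid glands and the thymus both arise from the third pharyngeal pouch. The parathyroid domain is marked by Gcm2, a transcription factor required for the gland to form, while the thymic domain comes to express Foxn1, and the organs then separate during fetal life. Parathyroid cells release parathyroid hormone from secretory granules, which also hold chromogranin A (encoded by Chga), when the calcium-sensing receptor (encoded by Casr) detects a fall in blood calcium. Vitamin D and FGF23 act back on the gland through the vitamin D receptor and through an FGF receptor with its partner Klotho.

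None of the other 3 libraries held a cell that passed the gate. The limit that a count of 0 allows (3 cells) was 0.0281% of 10683 cells in Tbx1neo2/neo2 carrier, 0.0937% of 3201 in Tbx1neo2/neo2 minoxidil and 0.0723% of 4152 in Tbx1neo2/neo2 PGE2. Against the epithelial cells of each library, defined below and numbering 1067, 953 and 1227, the limits were 0.281%, 0.315% and 0.244%. The totals over all barcodes of the genes that the gate used are given as a description. In the order +/+ carrier, neo2/neo2 carrier, minoxidil and PGE2, Pth had 183816, 18, 4 and 234 UMIs, Chga had 63555, 41, 25 and 54, and Gcm2 had 1004, 3, 7 and 2. Casr, which the gate did not use, differed less, with 421, 36, 72 and 60 UMIs. The median depth per kept cell was 21125, 14108, 41084 and 34790 UMIs.

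**Figure D1:**
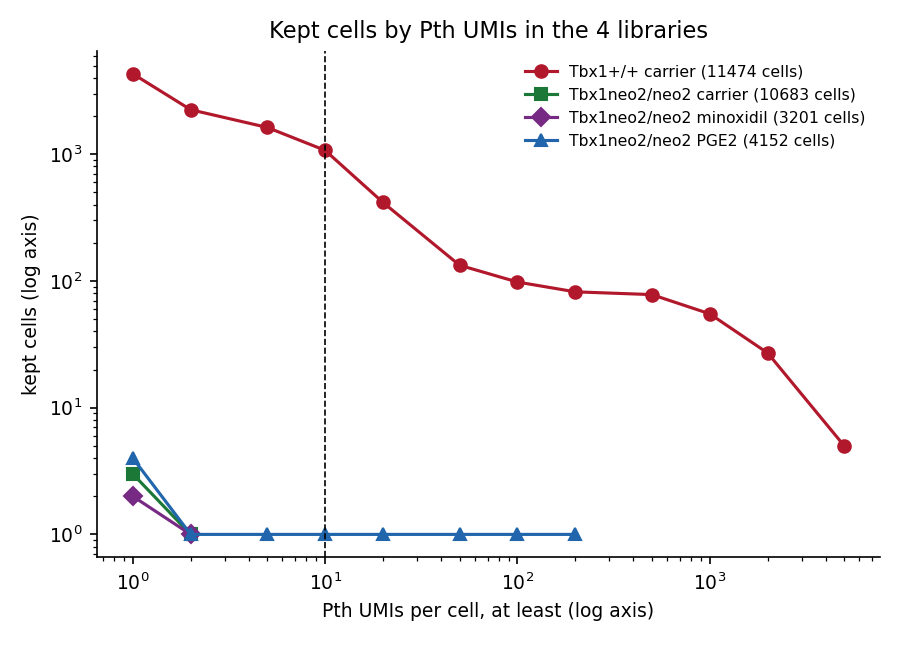
Number of kept cells (y axis, log) that held at least the number of Pth UMIs on the x axis (log), 1 line for each of the 4 libraries, with a dashed line at the gate's 10 UMIs. The Tbx1+/+ carrier line falls from 4309 cells with any Pth to 5 with 5000 or more, whereas the others start at 3, 2 and 4 cells and only 1 PGE2 barcode crosses the dashed line.

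The few Gcm2 counts outside the Tbx1+/+ library did not fall in cells like the gated ones. There were 3, 7 and 2 kept cells with Gcm2 in the neo2/neo2 carrier, minoxidil and PGE2 libraries, each with 1 Gcm2 UMI, no Pth and no Chga, and Ptprc was present in 2, 6 and 2 of them. Casr was seen in 35, 64 and 56 kept cells of these libraries and in 243 of the Tbx1+/+ library. A single barcode of the PGE2 library held 231 of that library's 234 Pth UMIs, with 23 Chga, 33 Gnas, 19 Ccl21a and 1 Casr UMIs. It had 0 UMIs of Gcm2, 0 of Gata3 and 3 of Epcam among only 1620 UMIs and 763 genes, and missed the gate on Gcm2 alone. Between 4 and 35 barcodes were shared by any pair of libraries, and 0 of the 129 gated cells carried a barcode that another library also held.

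Tbx1 itself did not order the 4 libraries by genotype. Over all kept cells it stood at 2.28 CPM (counts per 1e+06 UMIs) in Tbx1+/+ carrier (exact Poisson 95% interval 2.11 to 2.46), 2.33 in neo2/neo2 carrier (2.12 to 2.56), 2.46 in minoxidil (2.21 to 2.72) and 1.14 in PGE2 (0.982 to 1.33). Only the PGE2 library lay below the library labelled Tbx1+/+, and counts of this kind do not check the label, since the neo2 allele still gives Tbx1 transcripts and the libraries differ in their mixture of cells. Fewer cells that express Tbx1 and less Tbx1 RNA per cell cannot be told apart in these sums.

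Pth, the most abundant gene of the gate, lies at chr7:113385580-113388570 on the minus strand (GRCm38, GENCODE M21; ENSMUSG00000059077). Gcm2 lies at chr13:41101427-41111035 on the minus strand (ENSMUSG00000021362), Chga at chr12:102554969-102565028 on the plus strand (ENSMUSG00000021194) and Casr at chr16:36493696-36562141 on the minus strand (ENSMUSG00000051980). The 250 bases before the RefSeq start (GRCm38.p6) of Pth (chr7:113388574-113388823), Gcm2 (chr13:41109989-41110238) and Chga (chr12:102554691-102554940) are shown, on the strand of the gene, because these are the genes that define the cells, with capitals marking the motifs found.
Pth: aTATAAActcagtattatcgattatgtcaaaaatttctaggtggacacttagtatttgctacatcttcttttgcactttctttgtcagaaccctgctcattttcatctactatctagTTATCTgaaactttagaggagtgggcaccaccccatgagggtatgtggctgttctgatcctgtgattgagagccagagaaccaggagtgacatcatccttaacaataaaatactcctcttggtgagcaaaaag
Gcm2: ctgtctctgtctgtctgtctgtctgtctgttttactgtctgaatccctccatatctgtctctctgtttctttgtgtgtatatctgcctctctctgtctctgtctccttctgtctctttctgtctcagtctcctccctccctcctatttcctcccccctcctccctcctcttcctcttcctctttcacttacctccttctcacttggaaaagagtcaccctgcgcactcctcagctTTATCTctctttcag
Chga: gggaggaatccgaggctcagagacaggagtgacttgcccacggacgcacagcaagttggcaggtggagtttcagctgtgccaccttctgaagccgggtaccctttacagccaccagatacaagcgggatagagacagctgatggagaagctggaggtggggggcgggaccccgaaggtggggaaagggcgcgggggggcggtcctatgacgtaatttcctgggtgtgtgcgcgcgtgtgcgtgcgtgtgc
Among the letters searched, on both strands, were ATGCGGGT for the factor encoded by Gcm2, AGATAA for GATA factors such as Gata3, the cyclic AMP response element TGACGTCA and the TATA box TATAAA. The Pth window held TATAAA beginning 249 bases before the start and TTATCT, the reverse complement of AGATAA, 133 bases before it. The Gcm2 window held TTATCT 15 bases before the RefSeq start, the Chga window none of these 4, and no matches overlapped. The Gcm2 window lies within the GENCODE span of the gene, so RefSeq and GENCODE place its start differently. Among 32851 promoter windows of this length, 12.4% held TATAAA, 9.99% AGATAA, 1.55% TGACGTCA and 0.207% ATGCGGGT.

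Because Pth, Chga and Gcm2 chose the cells, their values are a description of the choice. A gated cell held between 10 and 7573 Pth UMIs (median 566), between 5 and 2748 Chga UMIs (median 211) and between 1 and 39 Gcm2 UMIs (median 3). Pth made up 0.10 to 14.6% of a cell's UMIs (median 2.89%), and 4.82% of the summed UMIs of all 129 cells, with Chga at 1.55%. The 129 cells held 77.2% of the Pth, 71.8% of the Chga and 75.5% of the Gcm2 UMIs of all kept cells of the library. Casr, the parathyroid marker that the gate did not use, was seen in 62 of the 129 cells, with up to 14 UMIs in a cell, and stood at 66.9 CPM in their sum (57.7 to 77.1) against 1.01 CPM in epithelial cells (defined below). Cells varied in depth from 1860 to 120934 UMIs (median 14945) and from 1009 to 9833 genes (median 4278).

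The gated cells fell into ranges by their Pth count. There were 85 cells with 50 or more Pth UMIs, with a median of 1153 Pth and 369 Chga UMIs, 22052 UMIs in all and 5151 genes, and 73 of them held at least 2 Gcm2 UMIs. The other 44 cells had a median of 20 Pth UMIs, 7138.5 UMIs in all and 2642.5 genes, 41 of them held a single Gcm2 UMI and 2 held Casr. For most of these 44 cells the markers do not bear out the parathyroid name, so all 129 are called gated cells in the comparisons. In steps of Pth from 10 to 49, 50 to 99, 100 to 499, 500 to 999, 1000 to 1999 and 2000 to 7573 UMIs there were 44, 6, 12, 16, 26 and 25 cells, of which 2, 2, 8, 12, 17 and 21 held Casr.

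**Figure D2:**
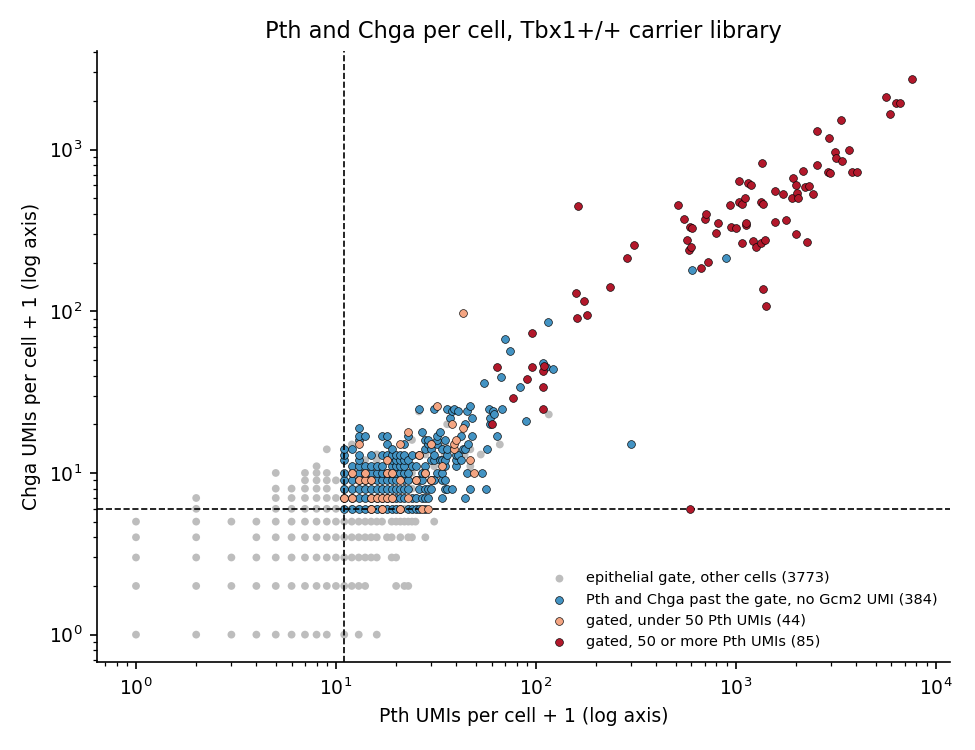
Pth against Chga UMIs per cell (both axes log) in the Tbx1+/+ carrier library, with 1 UMI added to each count, for the gated cells with 50 or more Pth UMIs (85) and with fewer (44), the 384 cells that missed the gate on Gcm2 alone and the other epithelial cells. Dashed lines mark the thresholds, near which most of the 44 and of the 384 cells lie together. Most of the 85 run along 1 band to the highest values. Cells off the band include 1 with 590 Pth and 5 Chga UMIs and 1 with 162 and 445.

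Other RNA moved with this split. Globin transcripts, the product of red cell precursors, made up 1.31% of the UMIs in the cells with 10 to 49 Pth UMIs and 0.815%, 0.345%, 0.0134%, 0.0128% and 0.0106% in the following steps. Taken cell by cell, 49 cells held between 0.468 and 4.84% globin and the other 80 at most 0.0378%, with none in between. The 49 cells had a median of 22 Pth UMIs (10 to 108), 4 of them held 2 or more Gcm2 UMIs and 3 held Casr. The 80 had a median of 1242 Pth UMIs (13 to 7573), with 2 or more Gcm2 UMIs in 72 and Casr in 59. A dividing value of 0.4% globin was set after these values were seen.

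**Figure D3:**
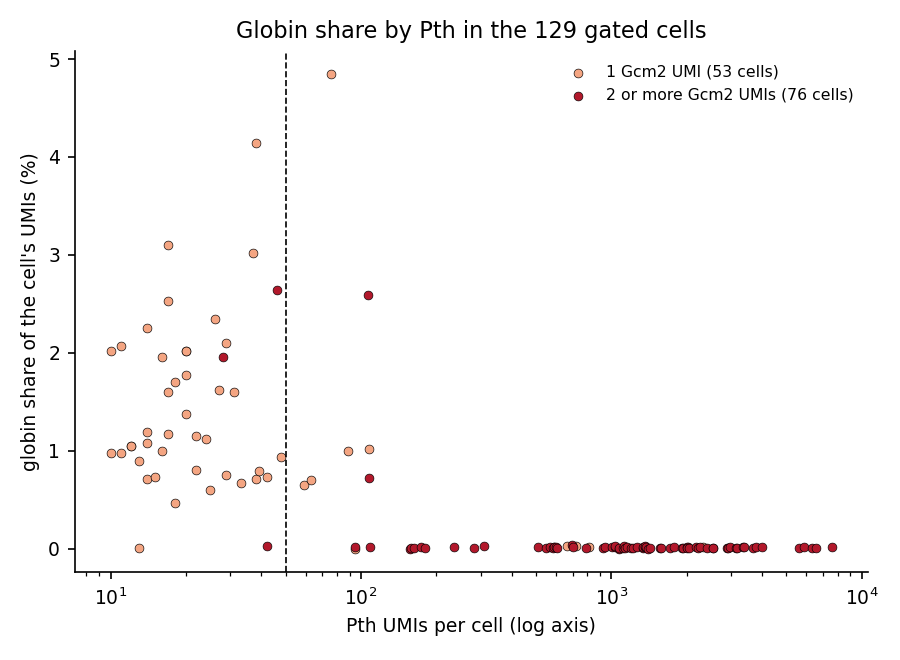
Globin share of a cell's UMIs (percent) against its Pth UMIs (log axis), 1 point for each of the 129 gated cells, coloured by whether it held 1 Gcm2 UMI (53 cells) or more (76), with a dashed line at 50 Pth UMIs. The 49 cells above 0.4% globin hold 10 to 108 Pth UMIs, and the cells with more Pth lie along the bottom.

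Cells just outside the gate were counted at each threshold. There were 384 kept cells that met every condition but Gcm2, with a median of 18 Pth, 8 Chga and 6111.5 UMIs, of which 29 held Casr. The 53 gated cells with exactly 1 Gcm2 UMI had a median of 22 Pth UMIs, and 6 held Casr. Only 2 cells met the other conditions with 5 to 9 Pth UMIs, against 12 with 10 to 14. For Chga, 7 cells held 3 or 4 UMIs and 17 held 5 or 6. Ptprc removed 36 cells, which had a median of 49.5 Pth and 22.5 Chga UMIs, against 566 and 211 in the gated cells, and Casr in 12.

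Pth and Chga UMIs were also found across the rest of the library. Pth stood at 11.6 CPM in 937 hematopoietic cells, 14.2 CPM in 1796 mesenchymal cells, 10.4 CPM in 125 endothelial cells and 109 CPM in 3939 epithelial cells, of which 38.9% held at least 1 Pth UMI and 372 held 10 or more. The epithelial cells were those with at least 2 Epcam and 2 Krt18 UMIs, at most 1 Ptprc UMI and no Pdgfra or Gcm2, which is the group that the gated cells were compared with. Hematopoietic cells had 3 or more Ptprc UMIs and mesenchymal cells 2 or more of Pdgfra and of Col1a1. Endothelial cells had 2 or more of Cdh5 and at least 1 of Pecam1. All of these cells lacked Epcam and Gcm2. Hematopoietic cells also lacked Pdgfra, mesenchymal cells Ptprc, and endothelial cells both. Col1a1, Cdh5 and Pecam1 were not barred from the other groups. There were 3.11 Pth UMIs for each Chga UMI in the gated cells, 2.37, 2.60, 3.31 and 2.61 in the hematopoietic, mesenchymal, endothelial and epithelial cells, 2.45 in the 384 cells without Gcm2 and 1.99 in the gated cells with fewer than 50 Pth UMIs (1.79 to 2.22). Since low Pth counts were spread over cells of every kind here, values for the 85 cells with 50 or more are given beside some of the list counts and leading genes. Scrublet marked 0 of the 129 gated cells as doublets, against 645 of all 11474 (5.62%) and 78 of the 3939 epithelial cells (1.98%).

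Summed over cells, the gated cells gave 2855902 UMIs and the epithelial cells 104282838. A gene was called when its CPM differed at least 2-fold with exact Poisson 95% intervals that did not overlap, among the 9388 genes at 10 CPM or more in 1 of the sums. By this rule 1650 genes (17.6%) were higher in gated cells and 653 (6.96%) lower. For the 85 cells with 50 or more Pth UMIs, 1807 of 9390 genes (19.2%) were higher and 763 (8.13%) lower, and 1588 of the higher genes were shared (96.2% of the 1650 and 87.9% of the 1807). For the 44 cells with fewer Pth UMIs, 903 of 9139 genes (9.88%) were higher and 390 (4.27%) lower. The median gene was 0.20 higher in gated cells on the log2 scale. Higher calls were 71.6% of all calls, and 45.5% (1025 higher and 1229 lower) after scaling by TMM, which moved the median gene to -0.15, so list counts are read against these medians and directions that turn with the scaling are named. A gene low in epithelial cells could reach 10 CPM only by being high in the gated cells, so counts and medians over tested members are a description of those members. Each value comes from 2 sums of 1 library, and neither cells nor genes are replicates.

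Of the transcription regulators of the pouch and the parathyroid, 14 of 18 were tested and 6 were higher, 3 lower and 5 neither, with a median log2 ratio of 0.55 (6 higher and 3 lower of 14 in the 85 cells, median 0.61). Over all genes 17.6% were higher and 6.96% lower (19.2% and 8.13% in the 85 cells). The 6 include Gcm2, whose direction the gates fixed. Tbx1 and Tbx2, also among the 6, were under 10 CPM in epithelial cells and entered only through their level in the gated cells. Gata3, which is mutated in an inherited syndrome of hypoparathyroidism, deafness and renal dysplasia, stood at 532 CPM (505 to 559) against 10.04, 52.9-fold higher, and at 591 CPM (58.9-fold) in the cells with 50 or more Pth UMIs. Gata3 also serves T cell progenitors, and its level in the hematopoietic cells was 96.7 CPM. After every cell was thinned to 5000 UMIs, Gata3 was found in 71.2% of 118 gated cells, 5.73% of 3703 epithelial cells and 32.0% of hematopoietic cells, and 11 gated cells were too shallow to enter.

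Tbx1, the gene altered in the other libraries and one that acts early in the pharyngeal region, was among the regulators that were higher. It stood at 32.9 CPM in gated cells (26.6 to 40.3, from 94 UMIs) and at 1.42 CPM in epithelial cells (1.20 to 1.67, from 148 UMIs), a 23.2-fold difference, and at 37.0 CPM in the cells with 50 or more Pth UMIs. The endothelial cells came closest, at 14.4 CPM. Over the thinned cells Tbx1 was found in 12.7% of gated cells, 17.1% of those with 50 or more Pth UMIs, 0.810% of epithelial, 0.535% of hematopoietic and 1.73% of mesenchymal cells. Gated cells, 1.12% of the kept cells, held 14.2% of their Tbx1 UMIs. Tbx2, a T-box repressor, was 8.24-fold higher at 17.9 against 2.17 CPM.

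The paired-box factors of the pouch went in opposite directions. Pax9 was 2.33-fold higher in gated cells (384 against 165 CPM) and Pax1 was 3.68-fold lower (168 against 619 CPM). The Pax9 call was lost under TMM, where 5 of the 14 regulators were higher and 3 lower (median 0.23). Over all 9328 genes tested under TMM, 1025 were higher and 1229 lower. After thinning, Pax9 was found in 63.6% of gated and 49.8% of epithelial cells, and Pax1 in 50.8% and 89.0%. Isl1 was 3.72-fold lower (33.6 against 125 CPM). Eya1 and Hoxa3, which act in the shared pouch, did not pass the rule, at 70.4 against 49.1 and 25.9 against 20.5 CPM.

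Of 31 genes of calcium sensing and handling, 23 were tested. Of these, 11 were called higher and none lower (beside 17.6% and 6.96% of all genes), with a median of 0.88. After TMM scaling 9 of 24 were higher and 1 lower (median 0.43), beside 1025 and 1229 of all 9328 genes. In the 85 cells 11 of 24 were higher and none lower (beside 19.2% and 8.13% of all genes), with a median of 0.80. Cacna1d, Casr, Fgfr1, Kl, Plcb1 and Vdr were under 10 CPM in epithelial cells and entered only through their level in the gated cells. Casr was found in 23.7% of the thinned gated cells, 31.7% of those with 50 or more Pth UMIs, 0.648% of epithelial and 0.0560% of mesenchymal cells, and in no thinned hematopoietic cell. Vdr, the vitamin D receptor, stood at 202 CPM (186 to 219) against 1.44, 140-fold higher (222 CPM and 154-fold in the 85 cells), and was found in 43.2% of thinned gated cells against 1.38% of epithelial cells. Kl, which encodes Klotho, stood at 71.1 CPM against 0.355, 200.3-fold higher (79.2 CPM and 223-fold in the 85 cells), in 26.3% against 0.378% of thinned cells. Fgfr1, the receptor that Klotho pairs with, was 11.8-fold higher at 46.2 against 3.90 CPM.

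Signal transduction genes of the calcium list differed from one another. Plcb1, a phospholipase C, was 85.8-fold higher (160 against 1.87 CPM, and 176 CPM in the 85 cells), and the calcium release channels Itpr1 and Itpr2 were 12.7-fold and 3.47-fold higher. Orai1, the store-operated calcium channel, was 4.99-fold higher (81.6 against 16.3 CPM). The alpha subunits Gna11 and Gnaq couple the calcium-sensing receptor to phospholipase C. Both were level between the groups, at 66.2 against 65.2 and 77.0 against 72.5 CPM. Gnas, which encodes the stimulatory alpha subunit along with overlapping imprinted transcripts that these counts do not separate, stood at 15637 CPM or 1.56% of their UMIs against 1296 CPM, and at 17293 CPM in the 85 cells. It was high in endothelial cells also, at 7181 CPM.

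**Figure D4:**
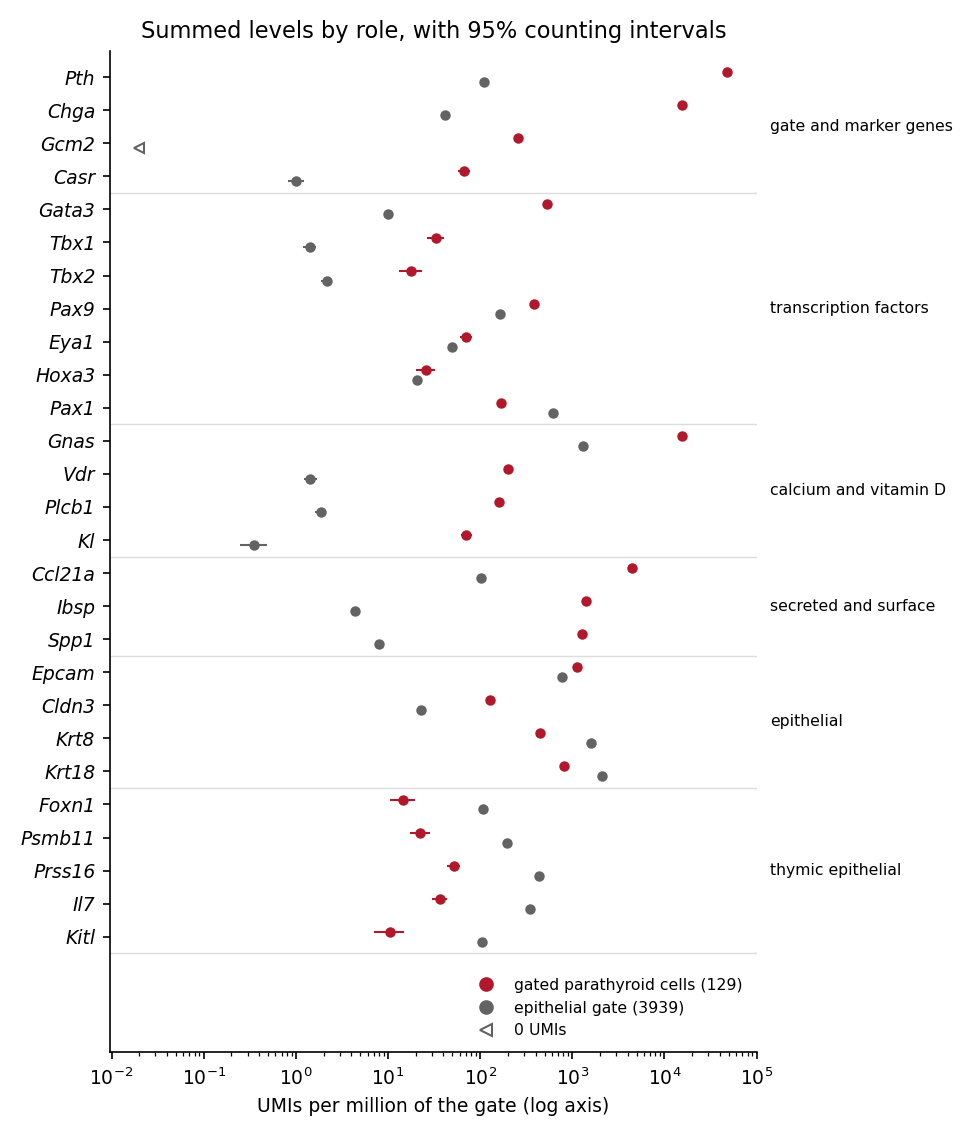
Summed level (CPM, log axis) of genes grouped by role in the Tbx1+/+ carrier library, for the 129 gated cells and the 3939 epithelial cells, with bars for the exact Poisson 95% intervals and an open triangle for a sum of 0 UMIs (Gcm2, by the gate). The points of the gated cells for Gata3, Vdr and Casr lie far to the right of the epithelial points, and those of the 5 thymic genes to the left.

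Most members of the list of granule and prohormone processing genes were too low to test. Of 28 members 9 could be tested, and 8 were higher (beside 17.6% of all genes) with a median of 1.22. The count fell to 4 of 8 under TMM scaling, beside 1025 of all 9328 genes. It was 8 of 9 in the 85 cells, beside 19.2%. These were Chga, which the gate used, Cpe, Cplx2, Rab3a, Stx1a and Sytl4, which entered only through their level in the gated cells, and Furin and Vamp2. Sytl4, which tethers granules through Rab27, stood at 84.0 CPM against 0.892, 94.2-fold higher, and at 93.1 CPM in the 85 cells. Cpe, the carboxypeptidase that trims prohormones, stood at 43.4 CPM against 3.75, and Furin, a protease of the constitutive pathway, at 26.3 against 11.5 CPM. Other genes of this list were not seen. Scg2, Scg3, Vgf, Pcsk1, Snap25, Cadps, Ptprn and Resp18 had 0 UMIs in the 129 cells, as did the neuroendocrine regulators Insm1, Neurod1, Nkx2-2 and Rfx6, and Chgb had 1, Pcsk2 4 and Syp 3. A count of 0 among 2855902 UMIs allows up to 3 UMIs.

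Of 27 tested genes of protein folding and export in the endoplasmic reticulum, 5 were higher (Sec11c, Sec61a1, Spcs1, Ssr2 and Ssr4) and none lower, a share close to the 17.6% of all genes. Over all genes 6.96% were lower. The median was 0.41 in all 129 cells and in the 85, and 0.091 under TMM. Under TMM 2 were higher, beside 1025 of all 9328 genes. Ssr4, a part of the translocon-associated complex, was 3.06-fold higher (719 against 235 CPM), and Spcs1, a subunit of signal peptidase, was 2.78-fold higher (410 against 147 CPM). Of the hormone family, Pth alone reached the level for testing. Pthlh, which encodes the related peptide, had 6 UMIs and Pth1r, the shared receptor, 12.

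The 20 largest ratios outside the gate genes ran from 94.2-fold to 354-fold. Among genes at 50 CPM or more and seen in at least 25% of the gated cells, Rhcg, an ammonia transporter, was 354-fold higher (91.7 against 0.259 CPM, and 103 CPM in the 85 cells). Ibsp, which encodes bone sialoprotein, was 326-fold higher at 1423 CPM (1380 to 1467) against 4.36, and at 1584 CPM in the 85 cells. Cryba2, a crystallin gene, was 224-fold higher (221 against 0.988 CPM), Fam20a, a partner of the secretory-pathway kinase Fam20c, 215-fold (388 against 1.80 CPM) and Gfra2, the neurturin receptor, 202-fold (144 against 0.710 CPM). Anpep, an aminopeptidase, was 170-fold higher, Spp1, which encodes osteopontin, 162-fold (1278 against 7.91 CPM, and 1340 in the 85 cells), Sparcl1 134-fold (1438 against 10.7 CPM), Pla2g7, the platelet-activating factor hydrolase, 129-fold and Rnase4, whose gene overlaps that of Ang, 100.4-fold. The other genes of the 20 largest ratios were Vdr, Kl, Sytl4, Nell1, Stac2, Esrrg, Il6ra, Rasal1, Abcc3 and Gm10600. Gated cells held 69.6% of the Ibsp UMIs of all kept cells, 68.2% of Rhcg, 65.0% of Cryba2, 58.7% of Kl and 55.9% of Spp1.

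Part of the epithelial level of these genes sat in epithelial cells that carried Pth. In the 2406 epithelial cells without any Pth UMI, Ibsp stood at 0.131 CPM (9 UMIs), Spp1 at 0.672, Vdr at 0.599 and Kl at 0.131 CPM. Gata3 stood at 8.08 CPM and Tbx1 at 1.39 CPM, so that the ratio for Tbx1 was 23.7-fold in place of 23.2. In the epithelial cells of the neo2/neo2 carrier, minoxidil and PGE2 libraries, which hold almost no Pth, Ibsp had 0 UMIs in each, Vdr 0.613, 1.16 and 0.908 CPM and Casr 0.828, 1.16 and 0.941 CPM. Against the epithelial cells without Pth, Vdr was 337-fold, Casr 97.4-fold and Gata3 65.8-fold higher in gated cells. Ibsp, with 9 UMIs left, was 10826-fold higher. With equal weight for each cell in place of sums, the ratios were smaller, with log2 values of 6.13 for Ibsp (8.35 in the sums), 5.47 for Spp1 (7.34), 5.74 for Kl (7.65), 5.34 for Vdr (7.13), 4.96 for Casr (6.05) and 4.70 for Gata3 (5.73).

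Several adhesion genes were higher in gated cells, and keratins differed in direction. Epcam stood at 1136 CPM against 775 in epithelial cells that Epcam had helped to choose. The claudins Cldn3, Cldn6 and Cldn7, components of tight junctions, were 5.61-, 4.17- and 3.89-fold higher. Cldn4, Cdh2 and the keratin gene Krt7 (17.9 against 7.35 CPM) were also called higher. Krt7, under 10 CPM in epithelial cells, entered only through its level in the gated cells. Under TMM the calls of Cldn4 and Krt7 were lost. Krt8 was 3.61-fold lower (446 against 1612 CPM), and Krt19, Dsp and Krt18, itself a gene of the comparison gate, were lower. In all, 6 of 17 members were higher and 4 lower, beside 17.6% and 6.96% of all genes. Under TMM 4 were higher and 5 lower, beside 1025 and 1229 of all 9328 genes. In the 85 cells 6 were higher and 4 lower, beside 19.2% and 8.13% of all genes.

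Of the chemokines, 2 of 5 tested were higher and 3 lower, beside 17.6% and 6.96% of all genes. Under TMM 1 was higher and 3 lower, beside 1025 and 1229 of all 9328 genes. Ccl21a, a ligand of CCR7 that draws T cell progenitors and is known from parathyroid as well as thymus, stood at 4475 CPM against 101, 44.1-fold higher, and at 248 CPM in endothelial cells. It was found in 93.2% of the thinned gated cells and 18.8% of the epithelial ones. Near-identical copies of Ccl21 lie in the mouse genome, and the other Ccl21 entries held 0 to 5 UMIs, so how reads were shared among the copies is uncertain. Cxcl14 was 2.37-fold higher at 50.4 against 21.3 CPM, a call that was lost under TMM. Ccl25, Cxcl12 and Cxcl10, chemokines of the thymic stroma, were lower.

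Every tested member of the thymic epithelial programme, 16 in all, was lower in gated cells, with a median of -2.83. All 16 were also lower under TMM (median -3.15) and in the 85 cells (-3.02). Over all genes 6.96% were lower, 1229 of 9328 under TMM, and 8.13% in the 85 cells. Foxn1, the regulator of thymic epithelial fate, stood at 14.7 against 107 CPM, 7.29-fold lower, and at 13.5 CPM in the 85 cells. Among genes of the cortical epithelium, Psmb11, the thymoproteasome subunit, was 8.67-fold lower (22.4 against 194 CPM, and 13.5 in the 85 cells) and Prss16, the thymus-specific serine protease, 8.38-fold lower (51.5 against 432 CPM). Il7 and Kitl, growth factors of T cell progenitors, were 9.44- and 10.1-fold lower. Ly75, an endocytic receptor of cortical epithelium, was 12.7-fold lower, and Ctsl, the cathepsin that cortical epithelium uses to process antigen, 4.32-fold lower (358 against 1545 CPM). The summed list stood at 877 CPM in all gated cells, 764 in those with 50 or more Pth UMIs, 1707 in those with fewer and 4894 in epithelial cells. After thinning, Foxn1 was found in 7.63% of gated, 39.8% of epithelial and 0.963% of hematopoietic cells.

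**Figure D5:**
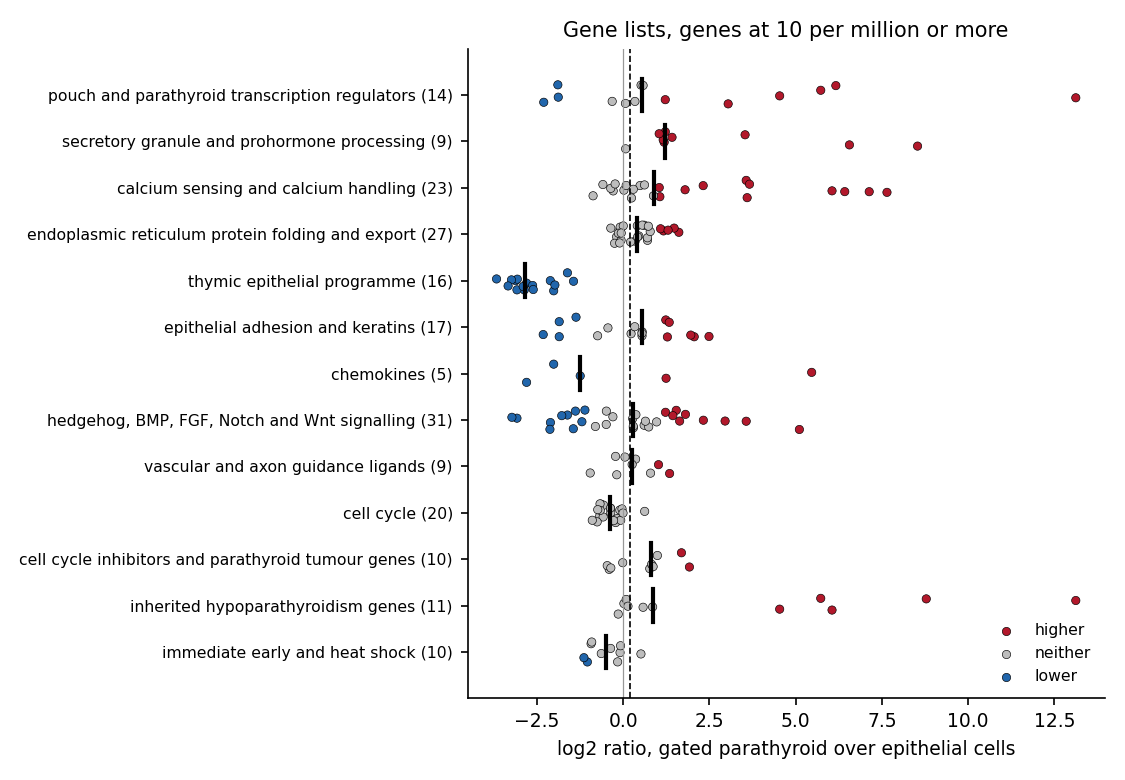
Log2 ratio of gated to epithelial CPM (x axis) for each tested member of the fixed lists (points), coloured by call, with the list median (bar), the number tested in parentheses, 0 (grey line) and the median of all 9388 genes (dashed line at 0.20). All 16 thymic genes lie left of 0, and no calcium or granule gene was called lower.

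Signalling genes moved in both directions. Of 31 tested, 9 were higher and 10 lower, beside 17.6% and 6.96% of all genes. The 9 include Fgfr1, Hhip and Wnt5a, which were under 10 CPM in epithelial cells and entered only through their level in the gated cells. The median of 0.29 turned to -0.043 under TMM, with 7 higher and 12 lower, beside 1025 and 1229 of all 9328 genes. Wnt5a, a non-canonical Wnt ligand, was 7.75-fold higher (72.8 against 9.40 CPM), while Wnt4, a thymic epithelial Wnt ligand, was 9.36-fold lower (23.1 against 216 CPM). The Notch ligands Dll4 and Jag2, of which Dll4 directs T cell fate, were lower, as were Notch1, Hey1 and Hes6, and Notch2 was higher. Bmp4, Bmp2 and Fgfr2 were lower. The FGF response genes Dusp6, Etv4 and Etv5 were higher, with Fgfr1, and the call of Etv5 was lost under TMM. Hhip and Ptch1, which bind hedgehog ligands and rise with hedgehog signalling, were 5.01- and 2.90-fold higher (10.9 against 2.17 CPM for Hhip), with 0 UMIs of the ligand Shh and of the target Gli1 in the gated cells. Id4, a regulator that blocks basic helix-loop-helix factors, was 34.5-fold higher, at 551 CPM. Vegfa, the endothelial growth factor, was 2.54-fold higher (99.8 against 39.3 CPM).

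Cell cycle genes did not pass the threshold in either direction. None of 20 was called, with a median of -0.37 (0 higher, 3 lower and -0.69 under TMM). Over all genes 17.6% were called higher and 6.96% lower, and 1025 and 1229 of 9328 under TMM. Mki67, a marker of cycling cells, stood at 225 against 241 CPM, Top2a at 304 against 475, Ube2c at 294 against 548 and Mcm2 at 71.4 against 46.4 CPM. Over thinned cells Mki67 was found in 40.7% of gated, 46.9% of epithelial and 44.9% of hematopoietic cells. Among inhibitors and genes of parathyroid tumours, 2 of 10 were higher, a share close to the 17.6% of all genes. These were Cdkn1c (p57), 3.22-fold higher (636 against 197 CPM), and Cdkn2c (p18), 3.79-fold higher (16.8 against 4.44 CPM). Cdkn2c, under 10 CPM in epithelial cells, entered only through its level in the gated cells. Of 11 tested genes of inherited hypoparathyroidism, 5 were higher (beside 17.6% of all genes), Casr, Gata3, Gcm2, Pth and Tbx1. Gcm2 and Pth belong to the gate. Casr and Tbx1 were under 10 CPM in epithelial cells and entered only through their level in the gated cells. The count is therefore a description of these members.

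Markers of other cell types were present and were higher in the cells of low Pth. All 10 mesenchymal markers were called higher in gated cells (beside 17.6% of all genes). Pdgfra was barred from the epithelial cells, so its direction was fixed by the gates. Of the 10 markers, 8 were tested in the cells with 50 or more Pth UMIs and 6 were called higher (beside 19.2% of all genes). The markers not tested there were under 10 CPM in epithelial cells. They entered only through their level in all gated cells. The sum of the 10 markers, led by Col3a1, was 536 CPM in all gated cells, 394 in those with 50 or more Pth UMIs and 1582 in those with fewer. It was 165 CPM in epithelial cells and 8675 in mesenchymal cells. The hematopoietic sum was 124, 60.1, 590, 55.4 and, in hematopoietic cells, 2011 CPM. The erythroid sum, led by the embryonic globin Hbb-y, was 2119, 623 and 13096 CPM in the 3 sets of gated cells and 1926 in epithelial cells. The 384 cells without Gcm2 stood at 1522, 733 and 15018 CPM for the 3 lists, close to the gated cells of low Pth. Endothelial markers summed to 55.0 CPM against 39.7 in epithelial cells. The part of these transcripts in the results above was not tested.

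Markers of neighbouring organs were at 0 or low in these cells. Tg, Nkx2-1 and Pax8, which define thyroid follicular cells, had 0 UMIs, and the follicular list summed to 6.30 CPM. Of the C cell list, Calcb had 0 UMIs, and Calca, which encodes calcitonin, had 27 UMIs or 9.45 CPM against 3.16 in epithelial cells. That was below the level for testing, but Calca was called higher in the 85 cells, at 10.7 CPM. Th, Dbh and Phox2a of the sympathoadrenal lineage had 0 UMIs, and the 148 CPM of that list were mainly Stmn2 (135 CPM, against 907 in epithelial cells). The neural crest list summed to 49.02 CPM, most of it Erbb3, a receptor of neuregulins, which was called higher (36.4 against 13.9 CPM). The airway list summed to 14.7 CPM, most of it Foxj1, a regulator of motile cilia, which was also called higher (11.2 against 3.19 CPM), with 0 UMIs of Foxa2, Sftpc and Scgb1a1.

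Within the cells of high Pth, levels still varied over a wide range at equal depth. Thinned to 5000 UMIs, the 82 cells deep enough among the 85 held 18 to 731 Pth UMIs (median 281.5), 0 to 177 Chga UMIs (median 92) and 11 to 149 Gnas UMIs (median 88.5). Ccl21a ranged from 0 to 77 (median 24.5). Ibsp was missing from 5 of these cells with a median of 8 UMIs. Spp1 was uneven, at 0 in 37 cells, with a median of 1 and up to 70 UMIs. Across the 82 cells, as a description, Spearman's rho of Pth was 0.72 with Chga, 0.56 with Ibsp, 0.43 with Gnas, -0.07 with Casr and -0.50 with Spp1. Ibsp and Spp1, both encoding acidic phosphoproteins of mineralised matrix, were related at -0.15. These cells share 1 library, and counts thinned to a fixed sum depend on one another when a gene takes a share as large as that of Pth.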

How the data were processed

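Thymic lobes were measured by droplet single-cell RNA sequencing. The deposited matrices hold raw UMI counts per gene and barcode that the authors made with Cell Ranger 5.0.1 on mm10 (GRCm38), without normalization. Seurat is named in the processing notes. Whether intronic reads were counted is not given in the sources used here. Counts were summed per gate in Python 3.11.15 (pandas 2.3.3, numpy 2.4.6 and scipy 1.17.1), scaled to CPM, and given exact Poisson or Clopper-Pearson 95% intervals. A gene was called at 2-fold with separate intervals. Thinning drew 5000 UMIs per cell without replacement. Doublets were scored with Scrublet in scanpy 1.11.5, TMM factors came from edgeR 4.0.16 (R 4.3.3), and figures from matplotlib 3.10.9. Positions came from GENCODE M21, which matched 27645 of 27998 gene IDs, and promoter windows from RefSeq.

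The members, lists and markers were chosen with earlier results of these data known. Genes named were drawn from the lists and from the 20 largest and 20 smallest ratios, outside the gate genes and the mitochondrial genome. These ratios were taken at 50 CPM or more with a UMI in 25% of the cells of the higher group. Of the 20 smallest, only members of the lists are named in the results. The others included Fermt1 (12.6-fold lower), Fgf14 (11.2-fold), Kcnn3 (10.5-fold) and Crip3 (10.4-fold). Alternatives changed the gates, the level filter, the fold, the scaling, the depth of thinning and doublets. Some members of the lists are not reported here by name.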

Additional observations from a re-analysis of the deposited data

Results flagged for a closer look

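Outside the limits on genes and mitochondrial UMIs, which the comparisons do not use, 11 barcodes of the Tbx1+/+ carrier library met all 4 marker conditions of parathyroid cells, with a median of 11.8% mitochondrial UMIs. In the Tbx1neo2/neo2 carrier library, where no kept cell held more than 2 Pth UMIs, 1 barcode outside these limits held 14 Pth UMIs with 2 Chga and 0 Gcm2 UMIs among 2632, of which 67.9% were mitochondrial.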

How the results depend on the processing

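Other settings of the gate in the Tbx1+/+ library left 47 cells at no more than 5% mitochondrial UMIs, 76 with at least 2 Gcm2 UMIs, 85 with at least 50 Pth UMIs and 80 without the cells over 0.4% globin. All 8 alternatives left each of the other 3 libraries at 0 cells. Higher and lower genes numbered 1025 and 1229 under TMM, 2639 and 1001 with no filter beyond 3 UMIs, and 2951 and 1413 at 1.5-fold. The list median of the pouch regulators was 0.15 at 5% mitochondrial UMIs, 0.23 under TMM and 0.95 without the filter. That of the thymic programme was -1.87 at 5% mitochondrial UMIs, that of calcium genes 0.43 under TMM and 1.05 without the filter, and that of the cell cycle -0.69 under TMM. Signs turned for chemokines (0.10) and Mki67 (0.076) at 5% mitochondrial UMIs, for Mki67 with 2 Gcm2 UMIs (0.016), under TMM for signalling (-0.043) and vascular ligands (-0.16), and without the filter for neuroendocrine regulators (1.49) and the hormone family (-0.82). The value of 1.49 is that of Insm1, which had 0 UMIs in gated cells and was set to the floor of 3 UMIs, so it shows no higher level. For the hormone family the main median is that of Pth alone, and members below the level filter entered when it was dropped. The causes of the others were not tested.

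Shares of gated cells with a UMI at 10000 UMIs, which 87 cells reached (78 of them with 50 or more Pth UMIs), and in all 129 without thinning were 44.8 and 48.1% for Casr, 73.6 and 58.1% for Vdr and 26.4 and 35.7% for Tbx1, and 14.7% for Foxn1 without thinning. Over 17 alternatives the log2 ratio ranged from 6.13 to 13.4 for Ibsp, 5.47 to 10.9 for Spp1, 5.74 to 9.08 for Kl, 5.34 to 8.40 for Vdr, 4.96 to 6.61 for Casr, 4.70 to 6.12 for Gata3, 3.94 to 4.77 for Tbx1 and -3.18 to -2.01 for Foxn1. Leaving out epithelial cells with 10 or more Pth UMIs gave 1673 higher and 666 lower genes, leaving out those with any gave 1723 and 666, and leaving out gated cells over 0.4% globin gave 1902 and 815, all 3 alternatives chosen after seeing the data. No paired analysis was possible because each group is 1 library. Depth limits the rarest genes, and Kl, Casr and Tbx1 rest on few UMIs per cell.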

Other observations

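Sparcl1, Ibsp and Spp1, all among the 20 largest ratios, lie near one another on chromosome 5 (GRCm38), at chr5:104079111-104113733 on the minus strand, chr5:104299171-104311469 on the plus strand and chr5:104435118-104441050 on the plus strand, in a cluster of genes for secreted phosphoproteins of bone and tooth. The genes between Sparcl1 and Spp1 were looked at after these values were seen. Dspp had 2 UMIs in the 129 gated cells, Gm26703 1, and Dmp1, Mepe and Gm42792 had 0. Sparcl1 was also high in endothelial cells (420 CPM) and stood at 128 CPM in mesenchymal cells. Fam20c, the kinase that phosphorylates such proteins, was looked up after Fam20a had been seen, and was 52.5-fold higher in gated than in epithelial cells (265 against 5.05 CPM).

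Immediate early and heat shock genes, which often respond to tissue dissociation, were not called higher in the gated cells. None of 10 tested was called higher and 2, Ier2 and Jun, were lower, with a median log2 ratio of -0.50. Over all genes 17.6% were higher and 6.96% lower. Under TMM 4 were lower (median -0.82), beside 1229 of all 9328 genes. In the 85 cells with 50 or more Pth UMIs 3 were lower, with Fosb, beside 8.13% of all genes.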
